A study of Mus musculus with 2 samples.

Results

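The 52 genes described here encode ligands, receptors and feedback inhibitors of fibroblast growth factor (FGF), epidermal growth factor (EGF), neuregulin and platelet-derived growth factor (PDGF) signalling. They were taken by name, as 36 ligand genes, 10 receptor genes and 6 Sprouty or Spred inhibitor genes, and looked up among the nearest genes listed for each cJUN peak. Of the 52 genes, 13 were listed, at 29 of the 2741 peaks in all. The peaks came from chromatin immunoprecipitation and sequencing of whole intestines of wild-type C57BL/6 mouse embryos at E14.5. The intestines of 8 embryos from 1 litter were pooled after 24 h in transwell culture. There was 1 library of DNA bound by a rabbit polyclonal antibody against cJUN and 1 library of input DNA, with the same strain, age and genotype, so no value has a replicate error and no difference between groups could be tested. The chromatin came from every cell type of the organ together, and no expression was measured, so the tissue label could not be checked against marker genes. Depth is unknown, because the peak list gives no read totals.

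Apart from the intracellular FGF homologous factors Fgf11 to Fgf14, these ligands bind receptor tyrosine kinases at the cell surface, which activate the Ras and MAP kinase cascade, and that cascade in turn raises the activity of AP-1, the dimeric transcription factor of which cJUN is a subunit. Sprouty and Spred proteins are induced by the same signals and restrain them. In the embryonic gut, FGF9 and PDGF ligands act on the mesenchyme, FGF10 and FGF7 are made by mesenchyme and act on epithelium, and ErbB receptors are used by epithelium and by enteric neurons and glia.

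Genes from all 3 roles had peaks. Of the 52 genes, 13 had a peak (25%, exact Clopper-Pearson 95% interval 14 to 38.9%), against 12.5% of all 21896 protein-coding genes. The interval covers counting error only, and the genes were not drawn independently of earlier results of these data. By role, 10 of 36 ligand genes (27.8%), 2 of 10 receptor genes (20.0%) and 1 of 6 inhibitor genes (16.7%) had a peak. The intervals of the 3 roles, 14.2 to 45.2%, 2.52 to 55.6% and 0.421 to 64.1%, overlapped widely. The 22 peaks at ligand genes, 6 at receptor genes and 1 at an inhibitor gene were all at different positions, and no peak listed 2 of the 52 genes. The ligand genes include 4 intracellular FGF homologous factors, and without them 7 of 32 ligand genes (21.9%) and 10 of 48 genes in all (20.8%) had a peak, with 14 peaks at ligand genes.

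**Figure D1:**
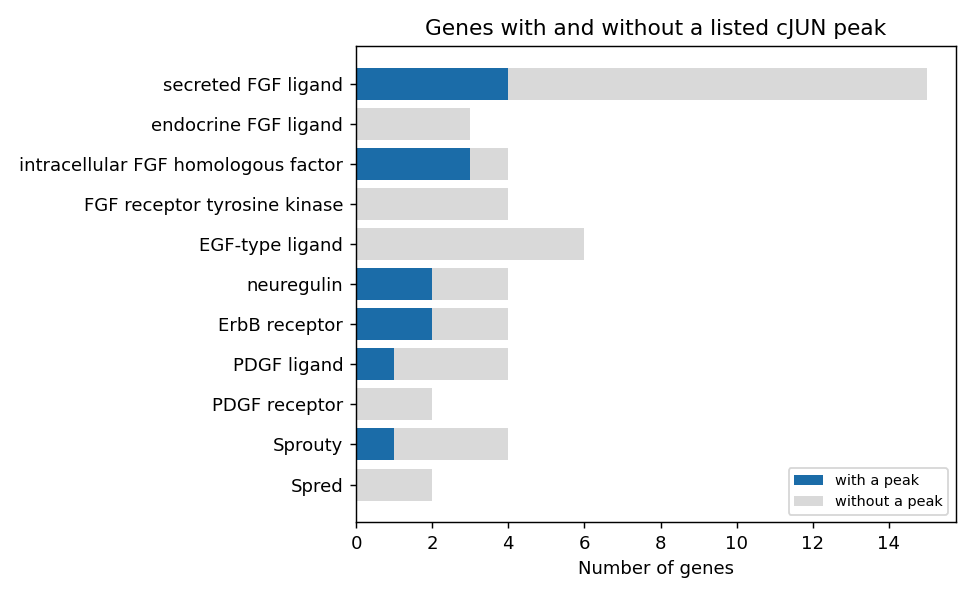
Number of genes with (blue) and without (grey) a listed cJUN peak, by subgroup of the 52 genes, on an axis of gene counts. Genes with a peak are found among secreted FGFs (4 of 15), intracellular FGF homologous factors (3 of 4), neuregulins, ErbB receptors, PDGF ligands and Sprouty genes, and among none of the 6 EGF-type ligands or 4 FGF receptors. Of all protein-coding genes, 12.5% had a peak. The exact 95% intervals are wide, 19.4 to 99.4% for 3 of 4 and 0 to 45.9% for 0 of 6.

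In the FGF family, 7 of 26 genes had a peak (26.9%), against 12.5% of all protein-coding genes. None of the 14 peaks was at a receptor gene. The intracellular FGF homologous factors, counted here as ligand genes, held 8 of them. Fgf7, Fgf9, Fgf10 and Fgf22 were the 4 of 15 secreted paracrine ligand genes with a peak. Of the 4 intracellular FGF homologous factors, which bind voltage-gated sodium channels rather than FGF receptors, Fgf12, Fgf13 and Fgf14 had 8 peaks between them and Fgf11 had 0. The endocrine ligand genes Fgf15, Fgf21 and Fgf23 had no peak, and neither did the receptor genes Fgfr1, Fgfr2, Fgfr3 and Fgfr4. No peak was listed at the secreted ligand genes Fgf1, Fgf2, Fgf3, Fgf4, Fgf5, Fgf6, Fgf8, Fgf16, Fgf17, Fgf18 and Fgf20. With 0 of 4 receptor genes listed, the exact interval reaches 60.2%, so the count does not separate receptors from ligands.

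In the EGF and neuregulin family, 4 of 14 genes had a peak (28.6%, exact 95% interval 8.39 to 58.1%), against 12.5% of all protein-coding genes. They were the neuregulin genes Nrg1 and Nrg3 and the receptor genes Egfr and Erbb4. ErbB4 is a receptor for neuregulins, so this set holds a receptor and 2 of its ligands. The 1 peak of Nrg1 was 799 kb from the start used, however, and the start of Wrn was nearer to it. None of the 6 EGF-type ligand genes Egf, Areg, Ereg, Btc, Hbegf and Tgfa was listed, and neither were Nrg2, Nrg4, Erbb2 and Erbb3. Of the PDGF genes, Pdgfc alone had peaks, and Pdgfa, Pdgfb, Pdgfd, Pdgfra and Pdgfrb had none. Spry2 was the one feedback inhibitor gene with a peak, where Spry1, Spry3, Spry4, Spred1 and Spred2 had none.

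Of the 39 genes without a peak, 8 neighbour another of the 52 genes by the RefSeq order of protein-coding genes (Fgf3 with Fgf4 and Fgf15, Fgf6 with Fgf23, and Areg with Ereg and Btc), so these genes do not count as separate observations. A neighbouring protein-coding gene was listed at a peak for 2 of the 39 genes (5.13%), against 2409 of 19152 protein-coding genes without a peak (12.6%). Those 2 genes were Fgf20, whose neighbours Msr1 and Micu3 were listed, and Pdgfd, whose neighbour Ddi1 was listed. The other 37 had no listing on either side. Among the 13 genes with a peak, 9 had a listed neighbour (69.2%), against 85.2% of all protein-coding genes with a peak. A peak can list 2 genes, so a gene's own peak often lists its neighbour too, and a high share is built in. The 4 others, Fgf7, Nrg1, Nrg3 and Pdgfc, had peaks that also listed Galk2, Wrn, Sh2d4b and Gm9989, which are not their neighbours in this order.

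The listed genes often had several peaks. Of the 52 genes, 8 had 2 or more (15.4%), against 3.89% of protein-coding genes. Erbb4 and Pdgfc had 4 peaks each, Fgf9, Fgf13, Fgf14 and Nrg3 had 3, Egfr and Fgf12 had 2, and the other 5 genes had 1. When each peak was counted for its nearest listed gene, 11 of the 52 genes remained (21.2%, against 7.60% of protein-coding genes), without Fgf13 and Nrg1. Peaks within 100 kb of the start were found for 7 of the 52 (13.5%, against 6.83%), namely Fgf7, Fgf9, Fgf12, Fgf22, Spry2, Egfr and Erbb4.

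Many of these loci are wide. Both starts could be placed at 20 peaks of these genes that listed 2 genes. The starts lay a median of 865 kb apart (95% interval of the median 327 to 888 kb), against 301 kb at 1643 peaks of the whole list. Peaks of 1 gene share a locus, as at Fgf13 (865 kb) and Pdgfc (888 kb). The distance was below 301 kb at Fgf7 (169 kb), Egfr (244 kb), Fgf22 and 1 Fgf9 peak (73.4 kb), and above it at the others. The highest value, 1420 kb, was at Nrg3, and the lowest, 11.8 kb, was at Fgf22. A gene with a wide space around it is nearest to more positions, and the part of this width in the counts above was not tested.

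**Figure D2:**
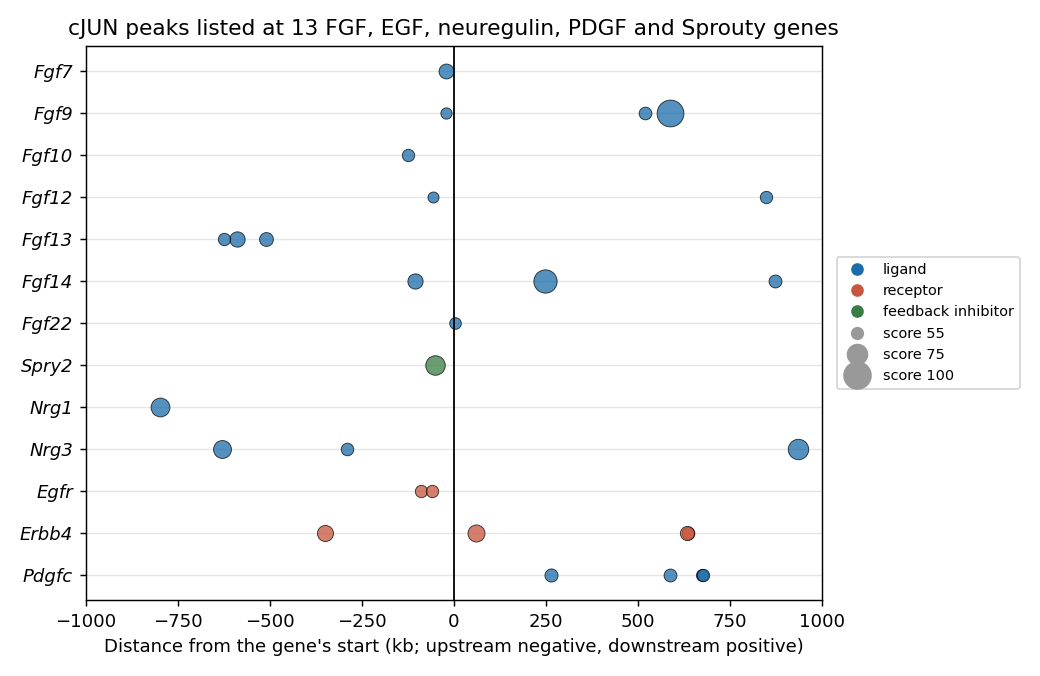
Position of the 29 peaks relative to the start of the listed gene, in kb, with negative values upstream. Each point is 1 peak, its colour gives the role of the gene, its area grows with the authors' score, and peaks lie on both sides of the start, from 4.68 kb (Fgf22) to 935 kb (Nrg3) away.

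The sign of the deposited distances could be read from the list itself. For 926 of 932 genes at 2 or more peak positions, the distances placed the gene at 1 start and 1 orientation within 2 bp, and 662 of 667 with a strand in RefSeq had that strand (99.3%), so a positive distance means downstream in the direction of transcription. Of the 29 listings, 15 were upstream (51.7%) and 14 downstream, against 48.1% upstream over all 4694 listings. Whether a downstream peak lies in an exon or intron was not analysed here, since the annotation used is of another build.

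A peak within 50 kb was found for 3 of the 52 genes (5.77%), near the 4.46% of protein-coding genes. These were the secreted FGF ligand genes Fgf7, Fgf9 and Fgf22, and Spry2 lay just outside at 50022 bp. The peak closest to any of the 52 starts lay 4.68 kb downstream of Fgf22, which encodes a synapse-organising FGF, at chromosome 10 from 79222514 to 79222581 (mm9, as are all peak positions). It was the shortest of the 29 at 67 bp, with a fold over background of 6.29 and a score of 55.39, where the score is 10 times the −log10 p-value of the authors' caller. The start of Rnf126, a ubiquitin ligase gene, was 7.12 kb from the same peak, so 2 starts lay close to it.

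Fgf9, a ligand that acts on gut mesenchyme, had a peak 20.0 kb upstream, at chromosome 14 from 58671433 to 58671585, whose fold was 13.40 and whose score was 54.74. Its other 2 peaks were far downstream, at 519 kb (59210779 to 59210933, fold 14.74, score 57.34) and 586 kb (59277517 to 59277625, fold 7.37, score 99.92). At these distal peaks the start of the pseudogene Rpl13-ps3 was nearer, at 301 and 235 kb. The score of 99.92 was the highest at any of the 52 genes, and its fold the second lowest, so the ranks by score and by fold differ at this peak.

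Fgf7, the keratinocyte growth factor gene, had its single peak 21.2 kb upstream, at chromosome 2 from 125839109 to 125839242, whose fold was 18.42 and whose score was 62.02. The other gene listed there was Galk2, a galactokinase-family gene, at 147 kb. Fgf10, a mesenchymal ligand gene, had 1 peak 124 kb upstream, at chromosome 13 from 119379602 to 119379743, whose fold was 16.53 and whose score was 56.70. The start of Mrps30, a mitochondrial ribosomal protein gene, was 204 kb from it on the other side. No other peak of the list lay within 2396404 bp of the Fgf10 peak.

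Because the closest peaks were at Fgf22, Fgf9 and Fgf7, the 250 bases before the start of these genes are shown, with that of Fgf12, the one window among the listed genes with an AP-1 heptamer. The sequences are RefSeq promoters of build GRCm38.p6, given 5′ to 3′ on the strand of the gene, and their coordinates cannot be set against the mm9 peaks. Capitals mark the heptamer TGACTCA read on the other strand as TGAGTCA. The windows lie at chr10:79754859-79755108 (+) for Fgf22, chr14:58072436-58072685 (+) for Fgf9, chr2:126034408-126034657 (+) for Fgf7 and chr16:28446076-28446325 (−) for Fgf12.
Fgf22: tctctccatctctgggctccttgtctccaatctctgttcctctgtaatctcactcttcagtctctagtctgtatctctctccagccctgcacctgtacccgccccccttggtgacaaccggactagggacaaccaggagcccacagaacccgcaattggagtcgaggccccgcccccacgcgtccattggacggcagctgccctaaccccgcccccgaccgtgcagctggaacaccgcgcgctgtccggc
Fgf9: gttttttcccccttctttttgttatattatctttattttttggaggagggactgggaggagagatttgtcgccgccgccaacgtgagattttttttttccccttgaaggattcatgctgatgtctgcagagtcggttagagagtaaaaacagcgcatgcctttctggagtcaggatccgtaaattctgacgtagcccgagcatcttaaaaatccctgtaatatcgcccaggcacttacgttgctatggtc
Fgf7: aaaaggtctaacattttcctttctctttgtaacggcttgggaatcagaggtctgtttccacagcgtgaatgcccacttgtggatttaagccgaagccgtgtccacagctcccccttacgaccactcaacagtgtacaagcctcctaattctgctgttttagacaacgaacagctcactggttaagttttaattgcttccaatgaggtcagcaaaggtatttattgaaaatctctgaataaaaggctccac
Fgf12: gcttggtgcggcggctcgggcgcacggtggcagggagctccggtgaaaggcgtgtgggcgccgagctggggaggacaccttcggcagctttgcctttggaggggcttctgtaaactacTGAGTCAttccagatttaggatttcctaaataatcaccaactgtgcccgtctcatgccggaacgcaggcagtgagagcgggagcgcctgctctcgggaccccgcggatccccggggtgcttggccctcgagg

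None of the 29 peaks lay within 1 kb of the 1 start per gene that the deposited distances use. Over all 4694 listings, 12 did (0.256%), so 0 of 29 is near that share. The windows were not compared with the peaks, so a match in them is only a description of letters. Of the 52 genes, 36 had a promoter in the table used, with 45 windows in all. TGACTCA, on either strand, was in 1 of the 45, and in 1466 of 32851 windows of all genes (4.46%). The match in Fgf12 begins 132 bases before the start. The cyclic AMP response element TGACGTCA, which JUN and ATF dimers bind and which is its own reverse complement, was in the window of Areg alone of the 45, and in 508 of all windows (1.55%). Of the 13 genes with a peak, 12 had a window, and Nrg1 was the other. The sequences under the peaks were not analysed here.

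The intracellular FGF homologous factor genes had peaks from 55.6 to 872 kb away. Fgf12 had a peak 55.6 kb upstream, at chromosome 16 from 28500814 to 28500955, whose fold was 15.29 and whose score was 54.25, and a peak 848 kb downstream, from 27597331 to 27597460, whose fold was 12.10 and whose score was 56.70. The distal peak was nearer to Ccdc50, at 208 kb, and the score of 54.25 was the lowest at any of the 52 genes. The 3 peaks of Fgf13 were upstream at 509, 589 and 624 kb, on chromosome X from 56896785 to 56896928, 56976296 to 56976425 and 57011367 to 57011505. Their folds were 18.42, 14.74 and 12.95 and their scores 59.70, 63.00 and 56.70. All 3 were nearer to F9, the coagulation factor IX gene, at 356, 276 and 241 kb. Fgf12 and Fgf13 each have 4 promoter windows in RefSeq, spread over 307 and 451 kb (GRCm38.p6), so a distance to the 1 start used by the authors is not the distance to every start.

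Fgf14 had 3 peaks on chromosome 14 and one of the strongest of the set. That peak, 248 kb downstream from 124828091 to 124828304, was the longest of the 29 at 213 bp and had a fold of 22.11, shared with 1 Erbb4 peak as the highest, and the second highest score, 86.64. The others lay 104 kb upstream (125180570 to 125180748, fold 14.74, score 62.77) and 872 kb downstream (124204260 to 124204412, fold 18.42, score 57.75). The last was nearer to Itgbl1, an integrin beta-like gene, at 145 kb, whereas no second gene was listed for the upstream peak.

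The peaks of the neuregulin genes were all far from the 1 start per gene that the deposited distances use. Nrg1, a ligand of ErbB3 and ErbB4, had 1 peak 799 kb upstream, at chromosome 8 from 33827515 to 33827652, whose fold was 18.42 and whose score was 72.19. The start of Wrn, a DNA helicase gene, was nearer to it at 668 kb. Nrg1 had no promoter window, so whether this peak is closer to another Nrg1 start was not looked at. Nrg3, a ligand of ErbB4, had 3 peaks on chromosome 14, at 290 and 630 kb upstream and 935 kb downstream. The downstream peak, from 39351528 to 39351676, had a fold of 20.83 and a score of 76.91, and the upstream peaks (40575634 to 40575789 and 40916127 to 40916274) had folds of 13.63 and 18.42 and scores of 57.03 and 69.63. Nrg3 was the nearest listed gene at all 3, and no second gene was listed at 2 of them.

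The receptor genes differed in where their peaks lay. The 2 peaks of Egfr, the EGF receptor gene, were upstream at 57.8 kb (chromosome 11 from 16594334 to 16594469) and 89.8 kb (16562383 to 16562513), 31.8 kb apart. Their folds were 12.66 and 18.29, and their scores were the same, 56.70. Egfr was nearer than Sec61g, a protein translocation channel gene, at both.

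Erbb4, the neuregulin receptor gene, had 3 of its 4 peaks downstream and 1 upstream on chromosome 1. A peak 60.2 kb downstream, from 69094090 to 69094245, had a fold of 21.81 and a score of 67.23, the highest of the 4. A pair of peaks 634 and 635 kb downstream were 1301 bp apart (68520230 to 68520369 and 68518774 to 68518929), with folds of 22.11 and 18.42 and scores of 60.60 and 57.13. No gene but Erbb4 was listed at these 3. The upstream peak, 349 kb away from 69503315 to 69503445, had a fold of 8.00 and a score of 64.76, and was nearer to Ikzf2, a zinc finger transcription factor gene, at 229 kb.

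Pdgfc, the gene of a ligand for PDGF receptor alpha, had all 4 peaks downstream on chromosome 3. The nearest, at 264 kb (81104419 to 81104569), had a fold of 14.74 and a score of 58.17. The next, at 586 kb (81426302 to 81426454), had a fold of 18.42 and a score of 57.75. A pair at 675 and 676 kb were 863 bp apart (81515052 to 81515204 and 81516067 to 81516214), with folds of 14.07 and 13.79 and scores of 56.28 and 56.70. The predicted gene Gm9989 was nearer than Pdgfc at the 3 distal peaks. The scores of the 4 peaks were within a narrow range, all below 60.

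Spry2, the gene of a Sprouty protein that restrains receptor tyrosine kinase signalling, had 1 peak 50022 bp upstream, at chromosome 14 from 106345979 to 106346137. Its fold was 16.75 and its score 74.17, in the upper part of the list (83.9th percentile by score). The other gene listed, Gm4775, was 154 kb away.

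Many of the listings were distant, and how distant depends on which genes are counted. The median distance was 509 kb over the 29 listings (exact binomial 95% interval of the median 104 to 630 kb), against 144 kb over all 4694 listings. When each peak was counted for its nearest listed gene alone, the median fell to 104 kb over 17 listings (55.6 to 290 kb), against 89.0 kb over 2635. Distances beyond 500 kb made up 15 of 29 (51.7%), against 16.4% of all listings. The nearest peak of each listed gene was a median of 60.2 kb away for the 13 genes (21.2 to 290 kb), against 83.6 kb for all 2744 protein-coding genes with a peak. It ranged from 4.68 kb at Fgf22 to 799 kb at Nrg1, with Fgf13 at 509 kb, Nrg3 at 290 kb and Pdgfc at 264 kb. The listings beyond 500 kb belonged to Fgf9, Fgf12, Fgf13, Fgf14, Nrg1, Nrg3, Erbb4 and Pdgfc, and listings of 1 gene share a locus, so they are not independent points.

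**Figure D3:**
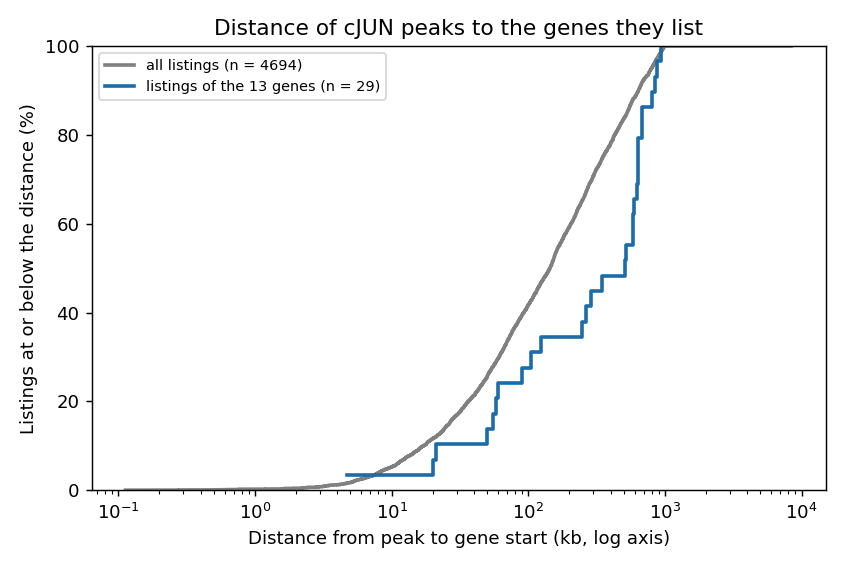
Cumulative share of listings (in percent) by distance from the peak to the start of the listed gene, in kb on a log axis, for all 4694 listings (grey) and the 29 of these genes (blue). The blue curve lies below the grey one over most of the range, with medians of 509 and 144 kb.

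The median fold and score of these peaks were below those of the list, but the intervals of both medians covered the list's values. Their median fold was 15.29 (95% interval of the median 13.8 to 18.4), with a range of 6.29 to 22.11, against 16.75 over all 2741 peaks. Their median score was 57.75 (56.7 to 63.0), with a range of 54.25 to 99.92, against 61.30. Their median percentile by score was 27.5 (15.8 to 57.2). Of the 29, 17 scored below 60 (58.6%, against 44% of all peaks) and 0 reached 100 (against 4.63%). The 3 peaks with a fold under 10, at Fgf9, Fgf22 and Erbb4, made up 10.3%, against 12.1%.

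Values of fold and score repeat across the whole list. The score of 56.70 was shared by 6 of the 29 peaks, at Egfr (2), Fgf10, Fgf12, Fgf13 and Pdgfc, and by 163 peaks of the whole list, and the fold of 18.42 by 7 of the 29 and by 653 in all. These tied peaks have no order among themselves. None of the 29 peaks fell in a dense group of 5 or more peaks with gaps up to 100 kb, which held 7.84% of all peaks.

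**Figure D4:**
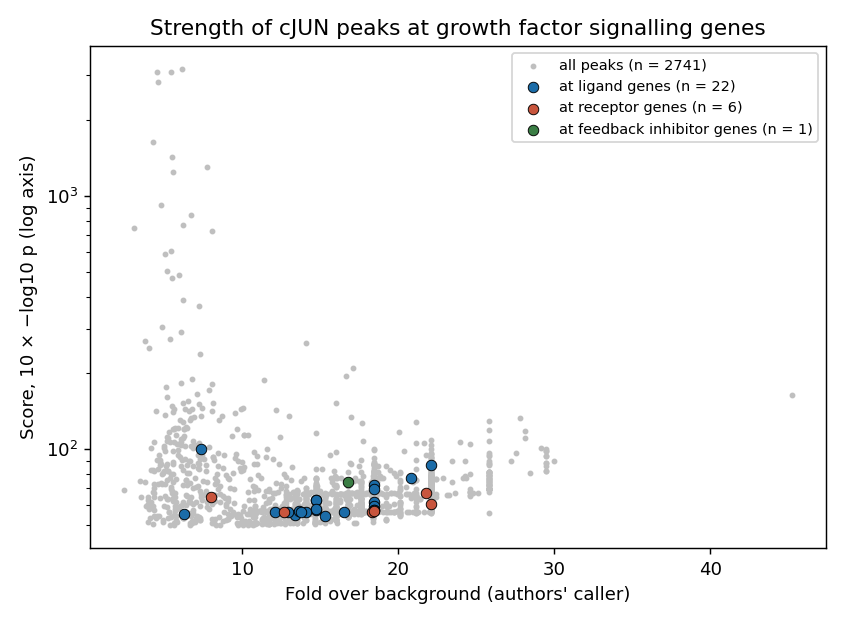
Score (10 times −log10 p, log axis) against fold over background for all 2741 peaks (grey) and for the peaks listed at ligand (blue, 22), receptor (red, 6) and feedback inhibitor (green, 1) genes. The coloured points sit between scores of 54.25 and 99.92, in the dense lower band of the list.

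The peaks of these genes were unevenly spread over chromosomes. Chromosome 14 held 10 of the 29 peaks (34.5%), against 5.36% of all peaks, at Fgf9, Fgf14, Nrg3 and Spry2, which are 4 of the 5 genes of the set on that chromosome. The fifth, Fgf17, had none. Fgf9, Fgf14 and Nrg3 had 3 of these peaks each, and peaks of 1 gene share a locus. The share of all protein-coding genes of chromosome 14 with a peak was not computed.

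Among 61 further genes of these pathways, 8 had a peak, a share close to the 12.5% of all protein-coding genes. Co-receptor and binding protein genes had 3 of 14, other negative regulators 2 of 10, nuclear targets 2 of 12, the Ras, MAP kinase and PI3 kinase cascade 1 of 15, and adaptors and Ras exchange factors 0 of 10. The list of 14 also held Epgn, an EGF-type ligand gene that was not in the main set and had no peak. The negative regulators were Cbl, a ubiquitin ligase gene acting on receptors, with a peak 15.7 kb downstream (fold 14.74, score 58.82), and Dusp4, a MAP kinase phosphatase gene, at 237 kb upstream (fold 18.42, score 64.02). The co-receptor group had Flrt2 at 328 kb (score 58.82), Pdgfrl at 56.3 kb (62.97) and Nrp1 at 269 kb (62.88). The nuclear targets were Etv1, an ETS factor gene induced by FGF signals, with 3 peaks and the highest-scoring at 110 kb (66.72), and Myc, with 2 peaks and the highest-scoring at 535 kb (71.72). Pik3r1, the regulatory subunit gene of PI3 kinase, had a peak at 653 kb (60.15).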

How the data were processed

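Per the submitters' processing notes, Bowtie 1.1.0, MACS 1.4 and the build mm9 were used. How duplicate reads were treated, which threshold was set and how genes were assigned is not given in the sources used here. In the deposited list, each peak has a fold (a ratio of immunoprecipitate over background) and a score (10 times −log10 of the p-value), per the file headers. Positions, lengths and signed gene distances are deposited in bp. All these are the authors' values for 1 immunoprecipitate against 1 input, and served for description and for filtering within the list.

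A gene was counted as having a peak where the list names it among the nearest genes of that peak. One listing of the 4694 lies beyond 1000 kb and none of these genes' listings does. All 52 genes matched a symbol in the RefSeq table of GRCm38.p6, which served for names, gene order and promoter sequences, and 2869 of 2963 listed names (96.8%) matched. Every listed and every unlisted gene of the 52 is named, by rule. The genes and gene lists were chosen with earlier results of these data known, so no test over them was run. One gene of the further pathway lists is not reported here and is in none of their counts. Counts are given beside the share of all protein-coding genes listed, with exact 95% intervals for counting error only. Those genes are the protein-coding genes of GRCm38.p6, and whether the authors' gene set held all of them is unknown, which limits the background shares. Alternatives changed the score, fold, distance, nearest-gene and cluster settings. Parsing and start inference were tested on simulated data. Python 3.11.15, pandas 2.3.3 and scipy 1.17.1 were used.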

Additional observations from a re-analysis of the deposited data

How the results depend on the processing

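No paired analysis was possible because there is 1 library per group and the results come from no test. The main counts were 13 genes, made up of 10 ligand, 2 receptor and 1 inhibitor gene, at 29 peaks. A score of at least 100 left 0 genes of each role and 0 peaks, where 0.644% of protein-coding genes remained, and so gave no median. A score at or above the median of the list left 8 genes (background 7.30%), with 6 ligand and 1 receptor gene at 11 peaks, and a median score of 69.63, which follows from that setting. Within 100 kb, 7 genes were left (background 6.83%), with 4 ligand genes among them, at 8 peaks, and the median distance was 52.8 kb. Within 50 kb, 3 genes were left (5.77%, background 4.46%), all ligand genes, with 0 receptor and 0 inhibitor genes at 3 peaks, a median distance of 20.01 kb and a median score of 55.39. Counting only the nearest gene left 17 peaks, and the median distance went from 509.2 to 104.3 kb, at the lower edge of its interval. For the upper part of the list by score it was 349.1 kb. All gene symbols in place of protein-coding genes lowered the background share to 5.74%, since that set adds noncoding genes and pseudogenes. The gene count was 12 when folds under 10 were dropped (background 11.7%). It was 13 when peaks at most 1 kb apart were joined (12.5%) and 13 when clusters were left out (12.4%). Under these 3 settings every result stayed within 1.5 times its main count or inside the interval of its median. Apart from what the settings themselves remove, the cause of these changes was not tested. Unknown depth limits what an unlisted gene means, since weak sites may not have been called.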
